A study of Mus musculus with 10 samples.

Results

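The measurements described here are the base substitutions at the C:G base pairs of an amplified piece of the mouse immunoglobulin switch mu region in B cells with and without UNG. The members are the 243 positions of the 560-base fragment whose reference base is C or G, after 5 polymorphic positions and 1 thinly covered end position were set aside. Of the members, 90 carry C and 153 carry G on the reference strand, which is the strand of the deposited tables. The series holds 10 libraries, of which the 4 UNG-/- and the 4 UNG+/+ libraries form the comparison and the 2 AID-/- libraries give the background.

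All libraries came from mouse spleen B cells. Cells of every genotype were labelled with the division dye CFSE and stimulated for 4 days with LPS at 25 µg/ml, IL-4 at 10 ng/ml and BAFF at 20 ng/ml. Low CFSE was the sorting gate, for 5 or more divisions, and the fragment was amplified for 25 cycles, sheared and sequenced. UNG-/- cells lack UNG but keep AID, UNG+/+ cells keep both enzymes, and AID-/- cells lack AID. The labels do not say how many animals gave each library or whether the libraries are separate animals, so p-values measure the spread between these libraries. The build is not given in the sources used here, no genome coordinates can be stated, and positions are counted along the deposited tables.

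AID is an enzyme that turns cytosine in DNA into uracil in activated B cells, and it prefers cytosines in the WRC motif, where W is A or T and R is A or G. A uracil that is copied before repair reads as thymine and gives a C:G to T:A transition. UNG is the uracil-DNA glycosylase that removes uracil and leaves a site without a base. Copying past such a site, with translesion polymerases, can insert any base, so that C:G to G:C and C:G to A:T transversions arise.

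Depth was high at most positions. The libraries held between 112909908 and 255310423 base reads that passed a phred quality above 20, with a median coverage of C:G positions between 141968 and 387751 reads. Coverage fell towards the ends of the fragment, to 1173 reads at the lowest. Frequencies are given as substituted reads per 10000 filtered reads. The reads are copies from PCR without molecular identifiers, so the read number overstates the number of sampled molecules. UNG-/- replicates 1, 2 and 4 carried a second base in a share of reads at the 5 polymorphic positions and replicate 3 did not. Some values are therefore also given with replicate 3 alone. The part of replicates 1, 2 and 4 in the results was not tested further. The AID-/- tables have that second base as their reference base at the same 5 positions.

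Each cytosine was classed by the 2 bases before it on its own strand. WRC holds 74 positions, made up of 30 WAC positions, 28 WGCW positions and 16 other WGC positions. WGCW is a palindromic motif with a hotspot cytosine on each strand, so its 28 positions form 14 neighbouring pairs of a G and a C. The remaining classes are SRC (40 positions, S being C or G), WYC (65, Y being C or T) and SYC (63), and 1 position has no class. The sequence contexts below show the positions on which the results turn, in 11 bases on the strand of the cytosine, with the cytosine and the base on each side of it in capitals. The first group holds the 10 positions with the largest rise of transitions in UNG-/- cells.
C506: ctaaACTgagg
G40: ccttACTgatt
C282: cacaGCTgtac
C287: ctgtACAgaat
G315: ctcaACTgcag
C546: ttgaGCCaaaa
G461: ctcaGCTcagc
G529: ctttGCTtacc
G200: tgatACCattc
G147: ttaaACCacat
All 10 are WRC positions, 6 of them WAC, and thymine, adenine and cytosine all occur after the target. The second group holds the positions that complete the 10 largest falls of C:G to G:C in UNG-/- cells beside C506, C282 and G40.
C535: caaaGCTgggc
C392: taaaGCTtgct
G451: ctgtGCTtttt
G534: cccaGCTttgc
C462: ctgaGCTgaga
G391: gcaaGCTttat
C530: gtaaGCAaagc
Thymine follows the target in 9 of those 10, C530 being the exception. The third group holds positions whose loss of transitions to UNG was among the largest or the smallest, to show the base before the target.
G100: aaaaACTaaaa
C119: cactACTacat
C343: actaACTctcc
G234: tctcACActca
C452: aaaaGCAcagc
C437: gtaaGCGaggc
G513: gtaaTCAcctc
C457: cacaGCTgagc
G281: tacaGCTgtgg
The first 4 of these, with large losses, have A before the cytosine. The last 5 are the positions with the lowest missing shares, of which 4 have G before the cytosine and G513, a WYC position, has T. Of these, C452 and C457 lie within 3 bases of a polymorphic position.

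UNG-/- cells had more transitions at most positions that could be tested. In a quasi-likelihood fit of edgeR with coverage as offset, 199 of 236 positions rose in UNG-/- relative to UNG+/+ cells at an adjusted p under 0.05 (84.3%), and 1 fell (0.424%). Libraries of the genotypes did not overlap at 183 positions with the higher values in UNG-/- (77.5%). Without a filter on low counts, 201 of 242 positions rose (83.1%) and 1 fell (0.413%), either way 83.5%, with a median log2 fold change of 1.47. In that fit 73 of the 74 WRC positions rose, with medians of 2.21 at WAC and 1.53 at WGCW positions. The exception was C452. Of the 63 SYC positions, 29 rose, with a median of 0.71. The position that fell, C224, had a log2 fold change of -0.79 and lies within 3 bases of a polymorphic position, as C452 does. These fits measure each position against its own coverage. Scaling instead by the substituted reads themselves (TMM) moves the median over all positions by -1.52 on the log2 scale, so that 33 positions (14.0%) stood above and 38 (16.1%) below the rest of the fragment, 30.1% in all. Against AID-/- cells, 206 positions were higher in UNG-/- cells (87.3%) and 153 in UNG+/+ cells (64.8%).

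**Figure D1:**
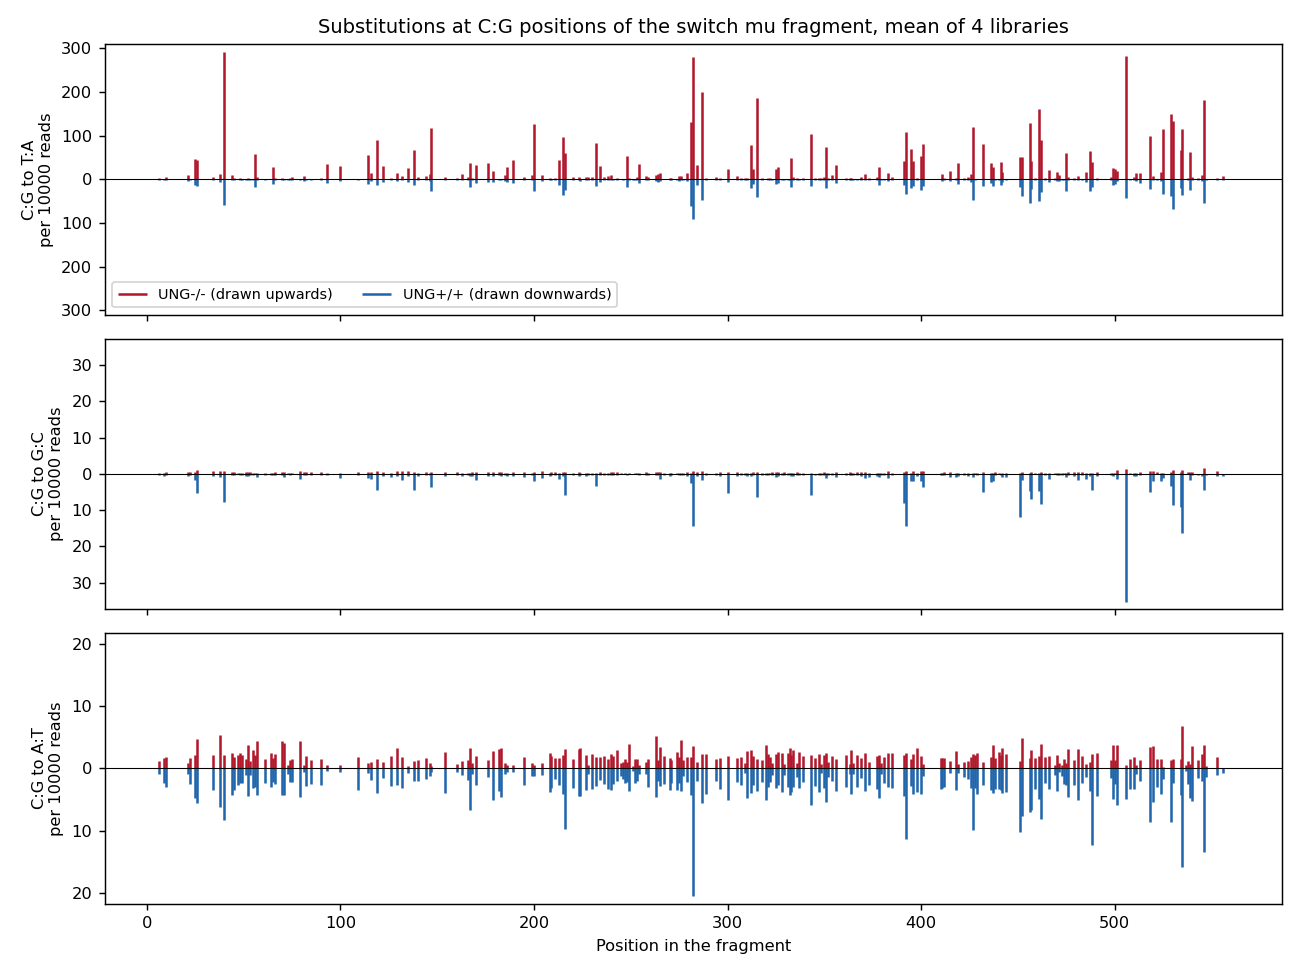
Substitution frequency per 10000 filtered reads (vertical axes) at each of the 243 C:G positions of the fragment (horizontal axis), as the mean of 4 UNG-/- libraries drawn upwards and of 4 UNG+/+ libraries drawn downwards, for transitions, C:G to G:C and C:G to A:T. Transitions stand higher in UNG-/- cells, with C506, G40 and C282 highest, while C:G to G:C stands almost entirely on the UNG+/+ side.

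C506, a WAC cytosine followed by T, had the largest rise. Transitions stood at 337, 337, 241 and 215 per 10000 in the 4 UNG-/- libraries, against 50.2, 39.1, 38.5 and 44.2 in UNG+/+ libraries and 0.537 and 0.894 in AID-/- libraries. Every UNG-/- library was above every UNG+/+ library, and these in turn were above both AID-/- libraries. C282, a WGCW cytosine of an AGCT motif, had 325, 361, 246 and 193 in UNG-/- and 114, 85.6, 78.5 and 84.7 in UNG+/+ libraries, with 1.68 and 1.54 in AID-/-. The groups did not overlap there either, although UNG+/+ cells kept about double the level of C506. Both positions had nearly the same level without UNG, with means of 283 and 281, and differed with UNG, with means of 43.0 and 90.8. Under scaling by substituted reads the log2 fold change of C282 turned to -0.05, that is, to the middle of the fragment.

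The share of transitions that were missing when UNG was present was computed from the excess over AID-/- cells, as 100 minus the UNG+/+ excess in percent of the UNG-/- excess. It was 72.1% ± 3.55 (SE) over WRC positions. Single positions were compared only where transitions averaged at least 10 per 10000 over the 8 libraries, which kept 82 positions, 70 of them WRC. C383, G129 and G264 lay just outside with 9.29, 9.55 and 9.60 per 10000, and G470, G524 and G485 just inside with 10.3, 10.6 and 10.8. Over the 82 positions the missing share ran from 27.3% at C452 to 88.0% at G234, with a median of 72.9%. It did not follow how often a position was hit: over the 82 positions, Pearson's r between UNG-/- transitions and the missing share was 0.11 and Spearman's rho 0.03. This is a description, since the positions share libraries and the UNG-/- level enters both values.

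The missing share was larger at WAC than at WGC positions. It was 80.3% ± 2.58 (SE) at the 30 WAC positions, 65.9% ± 4.16 at the 28 WGCW positions and 66.7% ± 4.72 at the 16 other WGC positions. To compare the classes within a library, the log2 ratio of their excess was taken. The ratio of WAC to WGCW was -0.02, -0.06, -0.24 and -0.05 in UNG-/- libraries, against -0.88, -0.86, -0.97 and -0.80 in UNG+/+ libraries. WAC positions thus stood near WGCW positions in every UNG-/- library and well below them in every UNG+/+ library. The difference was 0.79 ± 0.06 (SE; exact permutation test over 70 label assignments, two-sided, p = 0.0286, the smallest the design allows; adjusted p = 0.0429 over 3 contrasts). Replicate numbers 1 and 2, where 97.9% to 98.3% of base reads passed the filter, gave 0.83, and numbers 3 and 4, with 98.7% to 99.0%, gave 0.74. For WAC over other WGC it was 0.75 ± 0.04 (SE), with no overlap between the groups (exact permutation test, adjusted p = 0.0429). WGCW and other WGC positions did not differ beyond the spread of the libraries, with a difference of -0.04 ± 0.07 (SE; exact permutation test, p = 0.543).

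**Figure D2:**
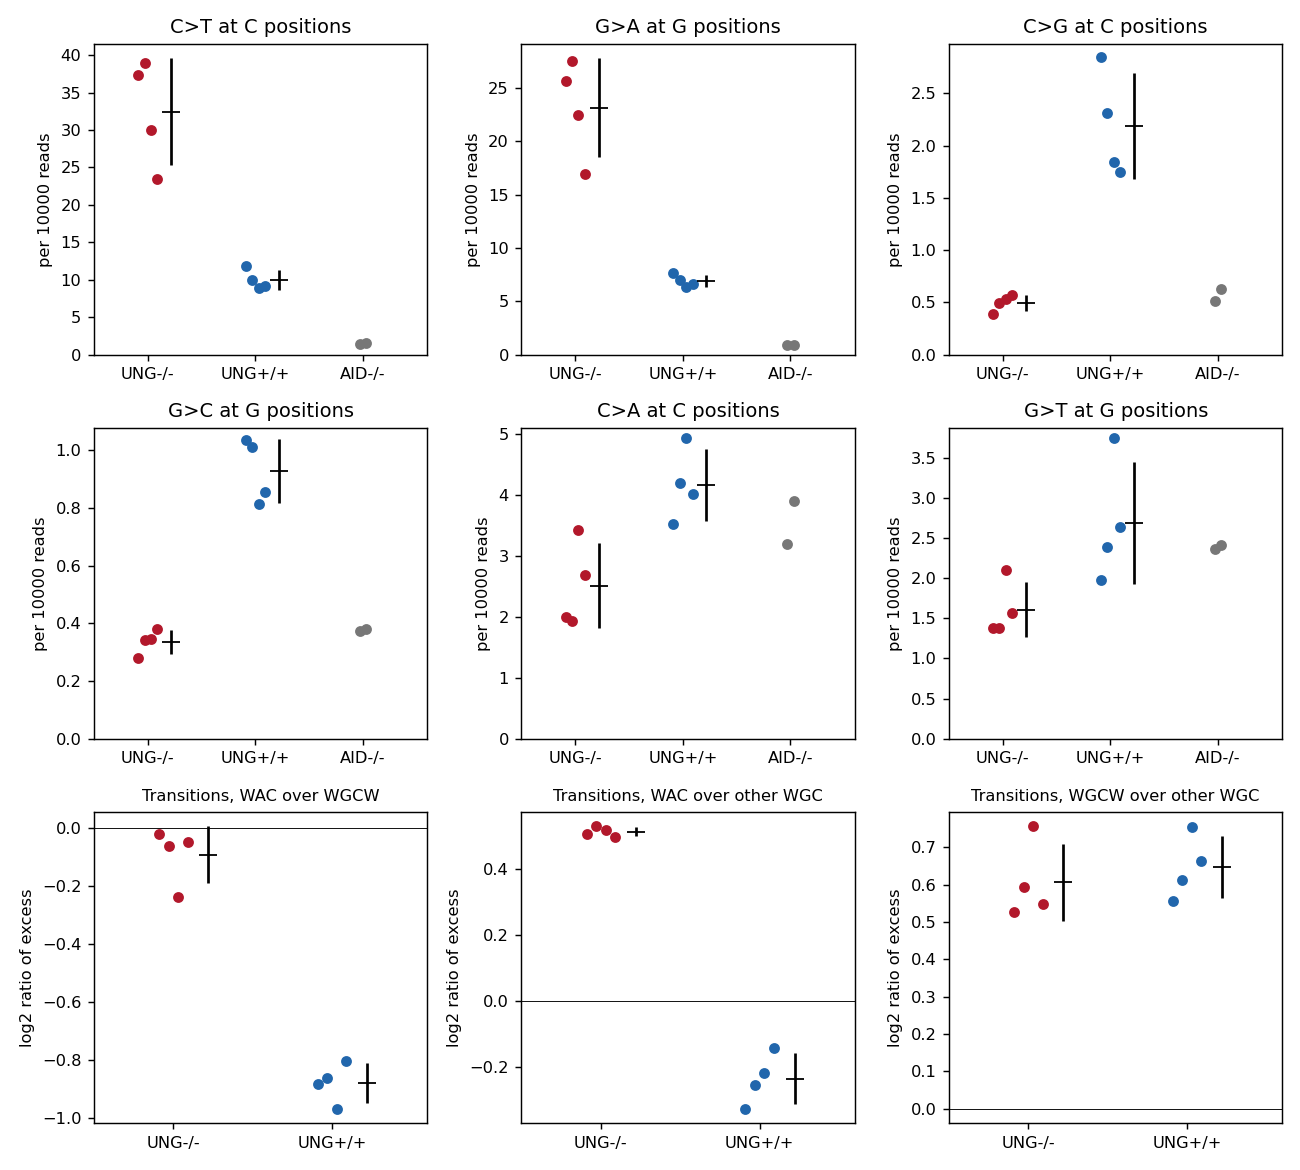
Upper panels show the mean frequency per 10000 reads of each substitution at all C or all G positions in UNG-/-, UNG+/+ and AID-/- libraries. Lower panels show the log2 ratio of transition excess between motif classes in UNG-/- and UNG+/+ libraries. Points are libraries, and the cross with its bar is the mean ± SD of 4. WAC stands 0.79 lower against WGCW in UNG+/+ than in UNG-/- libraries.

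A fit of the 82 positions against the average loss of the fragment placed the single positions. The offset of that edgeR fit held the mean transition frequency of each library over all C:G positions. In it, 27 positions lost more than this average to UNG (32.9%) and 22 lost less (26.8%), together 59.8%. Scaling over the 82 positions instead (TMM) gave 12 that lost more and 14 that lost less. Of the 27 WAC positions in the fit, 21 lost more, 1 lost less and 5 did not differ at the threshold. Of the 43 WGC positions, 1 lost more, 20 lost less and 22 did not differ at the threshold. Of the 7 SRC positions, 4 lost more and 3 did not differ at the threshold. Those that lost more include G234 and G232, whose cytosine also follows A, and C501, whose cytosine follows G. Of the 5 WYC positions, 1 lost more (G300), 1 lost less (G513, 50.7% missing) and 3 did not differ at the threshold. The WAC position that lost less than the average was G284 (63.1% missing), and the WGC position that lost more was C401 of the WGCW class (81.5%). With UNG-/- replicate 3 alone, the missing share was 78.3% for WAC and 66.2% for WGCW. With replicate numbers 3 and 4 alone, 16 positions lost more and 6 lost less.

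**Figure D3:**
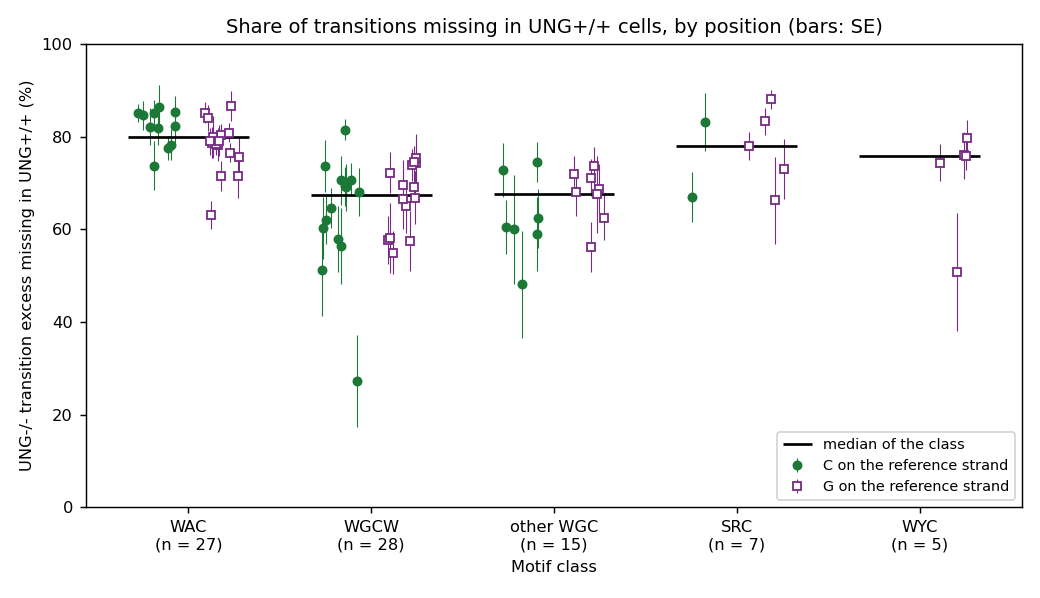
Share of the UNG-/- transition excess that was missing in UNG+/+ cells, in percent (vertical axis), for the 82 positions with enough transitions, by motif class (horizontal axis). Each point is a position with its SE over libraries, filled for C and open for G on the reference strand, and the black line is the class median. WAC positions lie mostly above WGCW and other WGC positions, and C452 is lowest with 27.3%.

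G100, a WAC position, had the largest loss relative to the average, by 1.10 on the log2 scale (edgeR). It had 37.5, 35.3, 30.3 and 21.3 transitions per 10000 in UNG-/- libraries, against 6.72, 4.14, 4.44 and 2.49 in UNG+/+ and 0.373 and 0.295 in AID-/- libraries. The lowest UNG-/- library was well above the highest UNG+/+ library. C437, an AGC cytosine followed by G, kept much of its transitions, with 32.1, 34.4, 27.0 and 18.2 in UNG-/- and 21.6, 14.1, 15.2 and 10.3 in UNG+/+ libraries. There the groups overlapped, and 48.1% ± 11.5 (SE) was missing. C452 had 51.4, 59.5, 56.1 and 35.4 in UNG-/- and 43.8, 40.5, 32.0 and 31.9 in UNG+/+ libraries, which also overlapped. Its partner on the other strand, G451, had 52.8, 55.4, 65.0 and 29.3 in UNG-/- and 21.1, 16.8, 14.4 and 15.9 in UNG+/+ libraries, without overlap. The pair thus had nearly equal transitions without UNG, with means of 50.6 at each, and unequal ones with it, with 37.0 at C452 and 17.1 at G451. The AID-/- background was not subtracted in this fit. It was 23.7 per 10000 at C530, 5.77 at C167, 5.17 at G325 and 4.38 at G500, all of which were called as losing less. With the background subtracted, 60.2%, 60.5%, 66.6% and 67.6% were missing at C530, C167, G325 and G500, so their values lie nearer to the average than the fit places them.

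C:G to G:C transversions lay at the AID-/- level without UNG. At WRC positions their mean was 0.468 ± 0.0328 per 10000 in UNG-/- libraries, 3.43 ± 0.832 in UNG+/+ libraries (SD, n = 4 each) and 0.462 ± 0.0930 in AID-/- libraries (SD, n = 2). Against AID-/- cells, edgeR called 0 of 191 tested positions higher in UNG-/- cells and 1 lower (0.524%), while 45 were higher in UNG+/+ cells (23.6%). Between the UNG genotypes, 54 of 191 positions were lower in UNG-/- (28.3%) and 2 higher (1.05%), and 42 were lower without overlap of libraries (22.0%). A filter on low counts favours positions where UNG+/+ cells are high, so the classes are given without it. In that fit 56 of 242 positions were lower in UNG-/- (23.1%), namely 22 of 28 WGCW, 14 of 30 WAC, 4 of 16 other WGC, 6 of 40 SRC, 9 of 65 WYC and 1 of 63 SYC positions. The 2 that were higher, G47 and G241, are SYC positions, and DESeq2 and limma called no position higher. Scaling by substituted reads, which moves the median by 0.44, gave 20 higher (10.5%) and 42 lower positions (22.0%), 21 of 27 tested WGCW positions among the lower.

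Most positions with UNG-dependent C:G to G:C had thymine after the cytosine. Of the 54 positions that were lower in UNG-/-, 44 had thymine next, 5 cytosine, 4 adenine and 1 guanine, where the fragment has 104, 58, 72 and 9 such positions. The grouping by next base was chosen after these values were seen and is given without a test. Without the filter on low counts, 45 of 103 positions before thymine were lower in UNG-/-, so many such positions were not called. Among WRC positions before thymine, 29 of 33 were lower in UNG-/- in the same fit, against 5 of 18 before adenine, 5 of 18 before cytosine and 1 of 5 before guanine. Before thymine the mean C:G to G:C frequency was 0.538 per 10000 in UNG-/- cells, 6.24 in UNG+/+ cells and 0.512 in AID-/- cells. Before adenine it was 0.485 in UNG-/- cells, 1.39 in UNG+/+ cells and 0.571 in AID-/- cells, while before cytosine it was 0.353 in UNG-/- cells, 1.09 in UNG+/+ cells and 0.262 in AID-/- cells. UNG-/- transitions in these groups averaged 91.3 before thymine, 61.6 before adenine, 69.6 before cytosine and 20.0 before guanine. Outside WRC the means before thymine were 0.365 in UNG-/- cells, 0.754 in UNG+/+ cells and 0.396 in AID-/- cells. Under scaling by substituted reads, 26 of 32 tested WRC positions before thymine were lower and none higher.

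**Figure D4:**
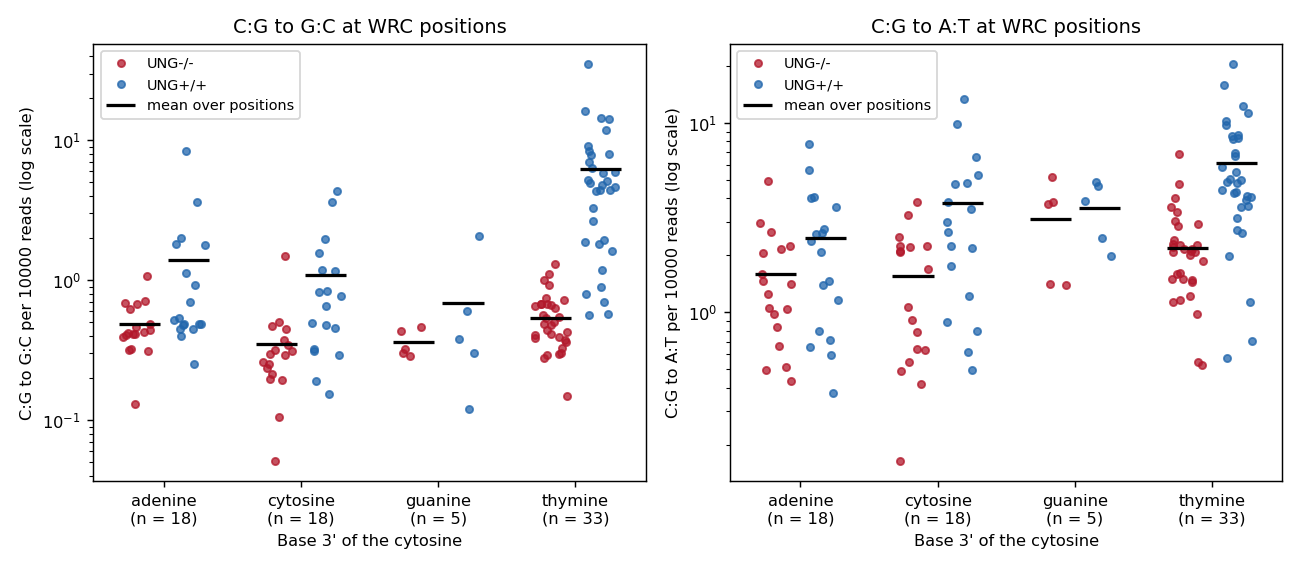
C:G to G:C (left) and C:G to A:T (right) per 10000 reads, on a log scale, at the 74 WRC positions grouped by the base 3' of the cytosine. Points are position means over 4 UNG-/- libraries (left of each group) or 4 UNG+/+ libraries (right of each group), and black lines are means over positions. C:G to G:C averages 6.24 before thymine in UNG+/+ cells and stays near 1 before the other bases.

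C506 shows the transversion at its strongest. C:G to G:C stood at 1.25, 0.915, 1.85 and 1.20 per 10000 in UNG-/- libraries, against 52.2, 37.3, 25.7 and 25.6 in UNG+/+ and 1.18 and 1.12 in AID-/- libraries. UNG-/- libraries lay at the AID-/- level. In UNG+/+ replicates 1 and 2 the transversion was about as frequent there as the transition, and in replicates 3 and 4 it was clearly less frequent. C506 alone carried a large part of its class: the UNG-dependent frequency, UNG+/+ minus UNG-/-, was 2.67 over WAC positions and 1.59 without C506, and over WRC positions before thymine 5.71 and 4.83. C287, also a WAC cytosine but followed by A, had a transition mean of 201 in UNG-/- cells and C:G to G:C values of 0.364, 0.475, 0.894 and 1.12 in UNG-/- and 3.69, 1.04, 1.23 and 1.18 in UNG+/+ libraries. These overlap (log2 fold change -1.28 ± 0.49, edgeR adjusted p = 0.0519). C392, an AGCT cytosine, had 0.934, 0.824, 0.736 and 1.23 in UNG-/- against 19.7, 16.9, 9.31 and 11.5 in UNG+/+ libraries, without overlap. C392 had fewer transitions in UNG-/- cells than C287, with a mean of 108.

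The level before thymine varied with the bases before the cytosine. With UNG present, C:G to G:C averaged 8.95 per 10000 at 6 AAC positions, 8.04 at 12 AGC, 4.29 at 7 TGC and 3.25 at 8 TAC positions before thymine. Without C506 the AAC mean was 3.70 over 5 positions, so the order of AAC among these groups rests on that position. Pooled over the first base, WAC positions before thymine averaged 5.69 and WGCW positions before thymine 6.65. No test was made between these groups. In UNG-/- cells the 4 groups lay between 0.491 at TGC and 0.584 at AGC. Of the substitution excess of UNG+/+ cells over AID-/-, C:G to G:C made up 17.2% ± 2.34 (SD, n = 4) at WRC positions before thymine and 3.98% ± 1.02 at the other WRC positions. Over the libraries these shares ran from 14.5% to 19.2% and from 2.97% to 5.39%. Both come from the same 4 UNG+/+ libraries and the split was chosen after the values were seen, so they are a description. The first share includes C506.

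C:G to A:T transversions were also lower in UNG-/- cells, over a higher background. At WRC positions the mean was 1.95 ± 0.485 per 10000 in UNG-/-, 4.52 ± 0.233 in UNG+/+ (SD, n = 4 each) and 2.70 ± 0.285 in AID-/- libraries (SD, n = 2). The UNG-/- mean thus lay under the AID-/- mean, and the UNG-dependent frequency was 2.57 measured against UNG-/- and 1.81 measured against AID-/- cells. With edgeR, 47 of 231 tested positions were lower in UNG-/- than in UNG+/+ cells (20.3%) and 0 were higher, and 46 were lower without overlap (19.9%). No position passed between UNG-/- and AID-/- cells, and 10 were higher in UNG+/+ than in AID-/- cells (4.33%), of which 9 are WRC positions. Without the filter on low counts, 50 of 242 positions were lower in UNG-/- (20.7%), namely 17 of 28 WGCW, 12 of 30 WAC, 8 of 16 other WGC, 0 of 40 SRC, 8 of 65 WYC and 5 of 63 SYC positions. These calls depend on the libraries. Without UNG-/- replicate 1, 24 positions passed, 29 without replicate 2 or without replicate 4, and 72 without replicate 3. Without UNG+/+ replicate 1, 94 passed. With replicate numbers 3 and 4 alone 9 passed, and with the replicate number as a block 87. With UNG-/- replicate 3 alone the UNG-dependent frequency at WRC was 1.89. Scaling by substituted reads, which moves the median by 0.50, gave 4 higher (1.73%) and 13 lower (5.63%), 7.36% in all.

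C282 had the largest UNG-dependent C:G to A:T frequency. It stood at 2.79, 3.20, 5.21 and 3.18 per 10000 in UNG-/- libraries, against 26.6, 20.7, 17.2 and 17.7 in UNG+/+ and 3.95 and 5.19 in AID-/- libraries. The UNG-/- and AID-/- libraries overlapped, and all UNG+/+ libraries were well above both. C427, an AGC cytosine followed by C, had 1.79, 1.04, 3.77 and 2.40 in UNG-/- and 9.63, 13.2, 9.95 and 6.86 in UNG+/+ libraries, again without overlap. Its C:G to G:C frequency stayed low, at 0.199 in UNG-/- and 0.843 in UNG+/+ cells. C546, with the same AGCC sequence, had an UNG-dependent C:G to A:T frequency of 9.57 and is thinly covered, with 3137 reads in its shallowest library. C506 was the converse, with a C:G to A:T mean of 0.550 in UNG-/- and 4.89 in UNG+/+ cells beside its 35.2 for C:G to G:C.

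The transversions are given side by side for the motif classes, with no test between classes. At WAC positions the UNG-dependent frequency was 2.67 for C:G to G:C and 1.30 for C:G to A:T, and without C506 it was 1.59 and 1.19. At WGCW positions the values were 4.65 and 3.97. At other WGC positions, 12 of which precede cytosine and 4 guanine, they were 0.575 and 2.51, so that C:G to A:T was the larger there. Measured against AID-/- cells in place of UNG-/- cells, C:G to A:T was 0.843 at WAC, 2.95 at WGCW and 1.64 at other WGC positions, and the order of the classes was the same. The second base carried by UNG-/- replicates 1, 2 and 4 was not tested as a factor in these differences, but with replicate 3 alone the values for C:G to A:T were 1.14, 2.90 and 1.53.

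UNG-dependent transversions amounted to a small part of the missing transitions. Over WRC positions the UNG-dependent C:G to G:C frequency equalled 5.71% of the transitions missing in UNG+/+ cells and C:G to A:T 4.95%, together 10.7%. Together they equalled 6.59% at WAC, 16.4% at WGCW and 8.81% at other WGC positions. For single positions with enough transitions the median was 8.89%, with a range of -0.673% at G93 to 62.5% at C488. G451 had the highest value for C:G to G:C, at 34.5%. Its C:G to G:C frequency was 0.425, 0.176, 0.282 and 0.230 per 10000 in UNG-/- libraries, against 12.4, 11.9, 10.5 and 12.7 in UNG+/+ libraries, beside a transition mean of 17.1 in UNG+/+ cells. G451 and C488 both lie within 3 bases of a polymorphic position.

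Most positions called for a transversion were also called for transitions. Of the 54 positions with lower C:G to G:C in UNG-/-, 53 also had more transitions in UNG-/- cells, the exception being C452. Of the 47 with lower C:G to A:T, 43 did, where 84.3% of all tested positions had more transitions. The transversions shared 30 positions, which are 55.6% of the first list and 63.8% of the second, and all 30 also had more transitions in UNG-/- cells. Over all tested positions 28.3% were called for the first and 20.3% for the second. These lists share libraries, so the overlap is a description. Over the 82 positions with enough transitions, UNG-/- transitions went with UNG+/+ transitions (Pearson's r 0.86, Spearman's rho 0.89), less closely with UNG+/+ C:G to G:C (0.62 and 0.57) and least with UNG+/+ C:G to A:T (0.48 and 0.37). The UNG+/+ transversions went with each other at 0.49 and 0.57, and the UNG-/- ones, at background levels, at 0.31 and 0.13. At WRC positions before thymine the UNG+/+ values were 0.44 and 0.64, and at the 41 other WRC positions 0.19 and 0.22. The missing share did not go with UNG-dependent C:G to G:C (0.07 and -0.04), so positions that lost a larger share of transitions were not those that gained more of this transversion.

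Each substitution was also followed by strand. C>T averaged 32.4 ± 7.13 per 10000 in UNG-/- and 9.96 ± 1.37 in UNG+/+ libraries over the 90 C positions, and G>A 23.1 ± 4.62 and 6.90 ± 0.572 over the 153 G positions. C>G averaged 0.496 ± 0.0779 in UNG-/- and 2.19 ± 0.505 in UNG+/+ libraries, and G>C 0.336 ± 0.0420 and 0.927 ± 0.111. C>A averaged 2.51 ± 0.700 in UNG-/- and 4.16 ± 0.589 in UNG+/+ libraries (all SD, n = 4 each). These 5 had no overlap between the genotypes (two-sided exact permutation test, p = 0.0286 each, the smallest possible, adjusted p = 0.0343 over 6 tests). G>T averaged 1.61 ± 0.344 in UNG-/- and 2.69 ± 0.756 in UNG+/+ libraries, which overlapped (exact permutation test, adjusted p = 0.0571). The AID-/- libraries had 3.19 and 3.90 for C>A and 2.36 and 2.41 for G>T, inside the range of the UNG+/+ libraries or just below it. Measured against AID-/- cells, the UNG+/+ mean was higher by 0.612 for C>A and 0.303 for G>T, against 1.65 and 1.08 when measured against UNG-/- cells.

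The share of transitions missing with UNG was nearly the same on both strands, and the level of C:G to G:C was not. At WRC positions 72.2% ± 4.02 (SE) of transitions were missing at C and 72.0% ± 3.18 at G. The log2 ratio of C to G for transitions at WRC was taken on the excess over AID-/- cells. It was 0.19 ± 0.07 in UNG-/- and 0.18 ± 0.10 in UNG+/+ libraries (SD, n = 4 each), a difference of 0.01 ± 0.06 (SE; exact permutation test, adjusted p = 1). For C:G to G:C and C:G to A:T the ratio was taken on frequencies without subtraction of AID-/-. For C:G to G:C it was 0.45, 0.87, 0.81 and 0.78 in UNG-/- libraries, against 1.32, 1.18, 1.14 and 0.93 in UNG+/+ libraries. The libraries did not overlap, but the difference of -0.41 ± 0.12 (SE) did not pass over the 6 strand tests (exact permutation test, p = 0.0286, adjusted p = 0.171). Without C506 it was -0.17 (exact permutation test, adjusted p = 0.900), so most of that difference rests on C506. At WGCW positions, where each motif offers a cytosine on either strand, the log2 ratio for C:G to G:C was 0.79 ± 0.32 in UNG-/- and 0.80 ± 0.11 in UNG+/+ libraries (SD, n = 4 each), against 0.66 and 1.05 in AID-/- libraries. For C:G to A:T at WRC it was 0.93 ± 0.25 in UNG-/- and 0.95 ± 0.09 in UNG+/+ libraries (SD, n = 4 each; exact permutation test, p = 0.886).

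The 14 WGCW pairs set a cytosine of each strand side by side. Transitions were higher at the C than at the G of the pair in 6 of 14 pairs in UNG-/- cells and in 6 of 14 in UNG+/+ cells. With UNG, the mean of C:G to G:C was higher at the C in 10 of 14 pairs. The same held for 12 pairs in UNG-/- cells and for 11 pairs in AID-/- cells. In 8 pairs all 4 UNG+/+ libraries were higher at the C, and in 1 pair, G451 and C452, all 4 were higher at the G. The 6 pairs of the AGCT motif have the same 4 bases on both strands. There all 6 pairs were higher at the C in all 4 UNG+/+ libraries.

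In AGCT pairs the C averaged 0.796 per 10000 for C:G to G:C and the G 0.371 without UNG. With UNG the means were 10.9 at the C and 5.18 at the G, and in AID-/- cells 0.791 and 0.320. The C position was thus about double the G position at the background level as well as at the level reached with UNG. The UNG-dependent frequency, UNG+/+ minus UNG-/-, was 10.1 at the C and 4.81 at the G. Transitions in the same pairs were nearer to each other, at 113.5 and 96.1 in UNG-/- and 37.8 and 35.1 in UNG+/+ cells. C:G to A:T was 4.09 at C and 1.91 at G in UNG-/-, 11.4 and 4.96 in UNG+/+ cells, and 5.71 and 2.57 in AID-/- cells. G281 and C282, the pair with most transitions, had C:G to G:C means of 0.666 at C and 0.292 at G in UNG-/-, against 14.2 and 2.63 in UNG+/+ cells.

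**Figure D5:**
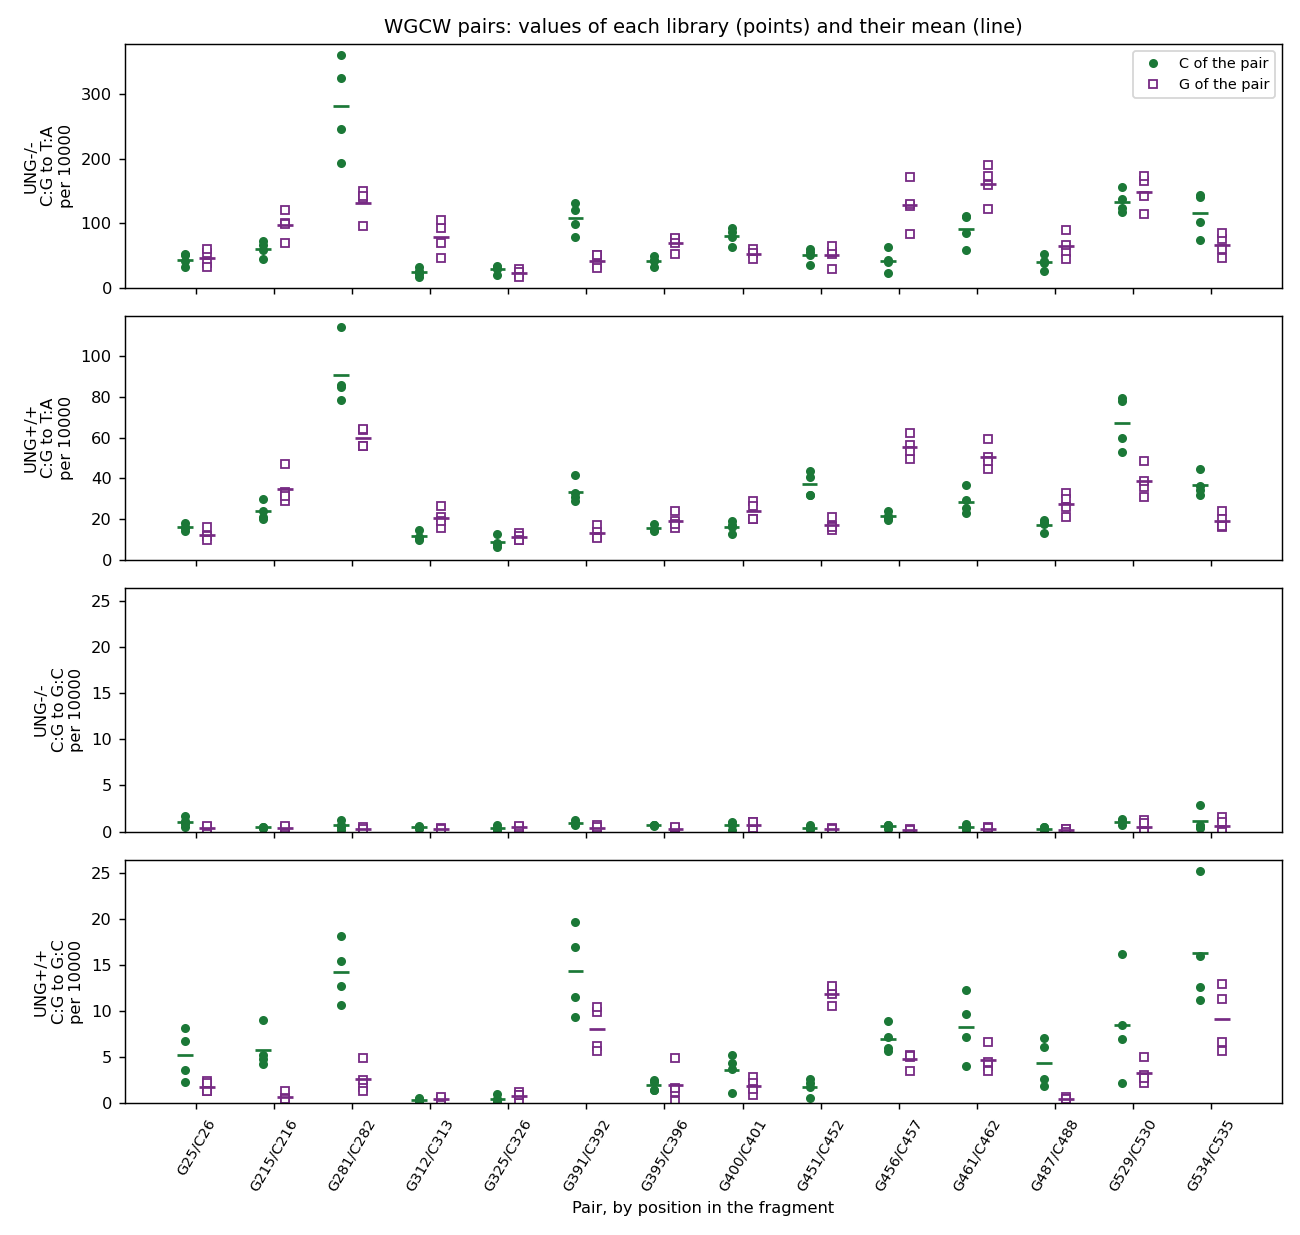
Transitions (upper panels) and C:G to G:C (lower panels) per 10000 reads at the 14 WGCW pairs in UNG-/- and UNG+/+ libraries. Filled circles are the C and open squares the G of each pair, with a point per library and a line at the mean of 4. With UNG, the mean of C:G to G:C is higher at the C in 10 of 14 pairs and at the G in the others. Only in the pair of G451 and C452, which lies near a polymorphic position, are all 4 libraries higher at the G.

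The sequence of the stretch with most such positions is shown to place them relative to each other. It covers bases 367 to 466 of the fragment on the reference strand and holds 21 of the 54 positions with lower C:G to G:C in UNG-/- cells, in capitals.
fragment stretch: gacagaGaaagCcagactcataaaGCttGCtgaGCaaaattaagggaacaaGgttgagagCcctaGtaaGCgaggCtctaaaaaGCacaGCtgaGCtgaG
Capitals come mostly as neighbouring GC pairs, and several G in capitals follow an a, which places thymine after the cytosine on the other strand.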

How the data were processed

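The deposited tables give, per position and library, counts of reads by base before and after a phred filter above 20, and fractions of each substitution; per the file headers the fractions are substituted over filtered counts, and recomputed fractions matched the deposited ones. Per the submitters' processing notes, CASAVA 1.7, Novoalign 2.07.04 and SAMtools 0.1.11 were used. Groups and replicate numbers follow the sample titles. The 5 positions that the authors list as polymorphic and 1 position with fewer than 1000 reads in a library were left out. The members, classes and alternatives were chosen with earlier results of these data known.

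Counts of substituted reads were fitted with edgeR 4.0.16 (quasi-likelihood, log coverage as offset, all 10 libraries, Benjamini-Hochberg adjustment over all tested positions, at least 10 reads in 2 libraries). The fit against average loss used the 8 UNG libraries. Values per library were compared with exact permutation tests. Named positions were the 10 with the largest change per outcome and the 5 with the lowest and highest missing share. DESeq2 1.42.0, limma 3.58.1, TMM, other filters, left-out libraries and positions, quality pairs and the replicate block were alternatives. Data were simulated with 15 positions per fold, independent counts and a dispersion set to 0.02, a value not estimated from these libraries. The C:G to G:C fit then recovered 66.7% of changes to 0.5 of the level and 100% of changes to 0.25. It covered 191 positions and called 1.5% of unchanged ones. These rates hold for that spread only. Same-numbered libraries deviated together only in part, with 6 of 12 correlations highest for the own number, and the main fits held no replicate block.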

Additional observations from a re-analysis of the deposited data

Results flagged for a closer look

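In groups of 4 libraries, chance sets about 1 in 20 groups apart by the gap used here, in which the highest or lowest value stands off by most of the range. The log2 ratio of C to G for C:G to A:T at WRC positions was 1.08 in UNG+/+ replicate 2, against 0.90 to 0.92 in the other UNG+/+ libraries. At C535, C:G to G:C was 2.90 per 10000 in UNG-/- replicate 1, against 0.353 to 0.707 in the other UNG-/- libraries. At C282, C:G to A:T was 5.21 in UNG-/- replicate 3, against 2.79 to 3.20 in the other UNG-/- libraries. At C488, C:G to A:T was 3.84 in UNG-/- replicate 3, against 1.65 to 1.81 in the others, and 19.1 in UNG+/+ replicate 1, against 9.76 to 10.3 in the others.

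The 5 polymorphic positions were outside the comparison and held a second base in UNG-/- replicates 1, 2 and 4, which is compared with the share of the same base in UNG+/+ libraries. At the first of them, counted along the fragment, it made up 48.0%, 48.2% and 45.7% of reads in those UNG-/- libraries, against at most 0.256% in UNG+/+ libraries. At the second the shares were 14.4%, 14.1% and 11.7%, against at most 0.0571% in UNG+/+. At the third they were 3.55%, 3.42% and 2.02%, and 0.113% in UNG-/- replicate 3, against at most 0.0847% in UNG+/+. At the fourth they were 3.49%, 3.55% and 1.96%, against at most 0.0250% in UNG+/+. At the fifth they were 43.5%, 44.3% and 41.8%, against at most 0.241% in UNG+/+. The same bases are the reference bases of the AID-/- tables, where they made up 97.6% to 99.9% of reads.

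At the 311 A:T positions, which the comparison does not use, all substitutions together stood at 1.14, 1.21 and 1.20 per 10000 in UNG-/- replicates 2, 3 and 4 and at 1.14 in UNG+/+ replicate 2, above the highest AID-/- library at 1.11.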

How the results depend on the processing

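Of 515 alternative values for the main results, 440 kept their direction and side of the threshold or, without a test, moved by less than the spread of the libraries. Scaling by substituted reads (TMM), which ignores coverage, called 71 positions for transitions and 17 for C:G to A:T, and 26 in the fit against average loss, and turned the log2 change of C282 transitions to -0.0533. Leaving out each replicate in turn gave 196 to 204 positions for transitions, 49 to 58 for C:G to G:C, 24 to 94 for C:G to A:T and 34 to 47 in the fit against average loss. It gave -1.96 to -1.39 for C>A, which lost the threshold in 6 of 8 such fits with adjusted p up to 0.0686, and -1.31 to -0.73 for G>T. Genotype differences (UNG-/- minus UNG+/+) of the log2 ratio of C to G, which lie near 0, changed sign. For transitions at WRC they ranged from -0.0169 to 0.0581 and at WGCW from -0.0749 to 0.000400, C:G to A:T at WRC from -0.0895 to 0.0919, and C:G to G:C at WGCW from -0.0885 to 0.138.

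With UNG-/- replicate 3 alone, added after the data were seen, 30 positions passed for C:G to G:C, 0 for C:G to A:T and 8 in the fit against average loss. C>A was -0.735, the genotype difference of the transition C to G ratio at WGCW -0.17, WAC over WGCW 0.64 and WGCW over other WGC 0.11. UNG-dependent C:G to A:T was 1.89 at WRC, 1.14 at WAC, 2.90 at WGCW and 1.53 at other WGC. Against AID-/- in place of UNG-/- these were 1.81, 0.843, 2.95 and 1.64. Replicate numbers 1 and 2 alone gave 3.08, 1.495 and 4.83 at WRC, WAC and WGCW, G>C -0.712 and a genotype difference of the C:G to A:T ratio of C to G at WGCW of -0.18. Numbers 3 and 4 alone gave 2.067, 1.10 and 3.11, -0.470 and 0.32, with 9 positions for C:G to A:T and 22 in the fit against average loss.

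Same-numbered libraries did not deviate together throughout, since 7 of 12 correlations were over 0.1, and 6 of 12 were highest for the own number. A replicate block gave 195, 54 and 48 positions for transitions, C:G to G:C and the fit against average loss, and 87 for C:G to A:T. Sign-flip tests over 4 pairs cannot go below 0.125, so under the replicate block C>T (22.5), G>A (16.2), C>G (-1.69), G>C (-0.591), C>A (-1.65), WAC over WGCW (0.79) and WAC over other WGC (0.75) did not pass.

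Without positions within 3 bases of a polymorphic position, C>A was -1.53 and missed the threshold, the genotype differences of the C to G ratio at WGCW were 0.000414 for transitions and -0.18 for C:G to A:T, WGCW over other WGC was 0.0504, and UNG-dependent C:G to A:T was 2.30 at WRC and 3.53 at WGCW. Without the 5% of positions highest in AID-/-, C506 among them for C:G to G:C, the genotype difference of the C:G to A:T ratio of C to G at WGCW was -0.23, WGCW over other WGC 0.0397, UNG-dependent C:G to G:C at WAC 1.56, and its share of the UNG+/+ excess at WRC 9.64%. Without subtraction of AID-/-, the genotype difference of the transition C to G ratio at WRC was -0.0245 and WGCW over other WGC 0.0244. Without C506 alone, also added after the data were seen, UNG-dependent C:G to G:C at WAC was 1.59, and the genotype differences of the C to G ratio at WRC were -0.0693 for transitions and 0.00629 for C:G to A:T. Causes were not tested. The shallow ends of the fragment and PCR copies limit what single positions show.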
